A study of Mus musculus with 34 samples.

Results

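The genes described here make or regulate the MHC class II antigen presentation machinery: H2-Aa, H2-Ab1, H2-Eb1, H2-Oa, H2-Ob, H2-DMa, H2-DMb1, Cd74 and Ciita. They are 9 of the 37074 genes and unnamed accessions on the array. Each was found through the RefSeq accession of its probe, and where a gene had more than 1 probe (H2-Ab1 and H2-Ob) the one with the highest mean lung signal was used. All 9 were among the 29316 units tested. The values are log2 ratios of lung RNA, labelled with Cy5, to a reference RNA from 11 mouse cell lines, labelled with Cy3.

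The lungs came from female C57BL/6 mice aged 5 to 7 weeks, 28 days after a single instillation into the trachea, in 40 µl, of 18 or 54 µg of a carbon nanotube material. The 3 materials carry code names. NRCWE-043 had 5 arrays at each dose, NRCWE-044 had 6 at 18 µg and 5 at 54 µg, NRCWE-045 had 3 at 18 µg and 5 at 54 µg, and the controls had 5. The labels do not state what the controls received, and 1 control array has NRCWE-043 at 0 µg in its title. RNA was taken from random sections of frozen lung, and nothing in the labels ties arrays to animals, so p-values measure the spread between arrays, which may in part be technical.

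MHC class II molecules are heterodimers of an alpha and a beta chain that show peptides from internalised material to CD4 T cells. The chains fold with the invariant chain, Cd74, which blocks the peptide groove until lysosomal proteases cut it down. The heterodimer of H2-DMa and H2-DMb1 then exchanges its last fragment for other peptides, and the heterodimer of H2-Oa and H2-Ob, best known from B cells, restrains H2-DM. Ciita is the transactivator that drives transcription of these genes. In lung, class II is found on dendritic cells, B cells, macrophages and alveolar type 2 cells. The H2 haplotype of C57BL/6 mice lacks a functional alpha chain for H2-E, so H2-Eb1 has no partner to form a surface molecule there.

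Ciita acts through factors bound to short elements upstream of class II genes, an X box followed by a Y box, and the stretch that holds them is shown for the members that have one in the promoter sequences used here. RefSeq-based promoter windows (GRCm38.p6), which run from 250 bases before to 50 after the transcription start, matched 6 of the 9 members by symbol, with 7 windows, since H2-DMa had 2. The 5 sequences run 5′ to 3′ on the gene's strand from 105 to 26 bases before the start. Capitals mark the Y box core GATTGG and the X box core AGNAAC, or their complements.
H2-Oa, chr17:34092274-34092353, plus strand: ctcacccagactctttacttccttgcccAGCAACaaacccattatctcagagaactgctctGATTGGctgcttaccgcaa
H2-Ob, chr17:34238800-34238879, plus strand: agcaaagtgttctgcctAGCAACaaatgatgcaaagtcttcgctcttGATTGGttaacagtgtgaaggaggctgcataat
H2-DMb1, chr17:34153086-34153165, plus strand: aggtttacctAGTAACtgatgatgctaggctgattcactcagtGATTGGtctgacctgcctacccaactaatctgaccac
H2-Eb1, chr17:34305762-34305841, plus strand: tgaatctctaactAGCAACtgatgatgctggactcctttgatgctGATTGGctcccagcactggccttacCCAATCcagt
H2-Aa, chr17:34287849-34287928, minus strand: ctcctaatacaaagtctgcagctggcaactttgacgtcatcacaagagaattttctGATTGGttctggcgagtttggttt

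GATTGG, on either strand, was present in 16.1% of the 32851 promoter windows in the table and AGNAAC in 48.1%. A GATTGG on the gene's strand that began 40 to 70 bases before the start was present in 1.88% of them, and all 5 sequences above held one, its first base lying 44 bases before the start in H2-Oa, 58 in H2-Ob, 62 in H2-DMb1, 60 in H2-Eb1 and 49 in H2-Aa. In H2-Oa, H2-Ob, H2-DMb1 and H2-Eb1 an AGNAAC began 25 to 40 bases upstream of that GATTGG, an arrangement found in 10 of all 32851 windows (0.0304%). H2-Aa did not have these letters at that place, and neither H2-DMa window had a GATTGG in that stretch. Those distances were chosen after the sequences were seen, and letters alone do not show that a factor binds.

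There were 6 slides, and the arrays of a slide shared a scan day. Controls were on slides 1 (2 arrays), 2, 3 and 5 and none on slides 4 and 6. In the lung channel 50.8 to 68.5% of probes passed the scanner software's test for signal well above background, and 6 of 6 lung markers (Sftpc, Sftpa1, Ager, Scgb1a1, Cldn18 and Foxf1) did so on all 34 arrays. Markers of neighbouring tissues varied widely. The mean log2 level of the 5 heart muscle markers, set against the control mean, ran from -2.43 to 2.32 in treated lungs and from -1.02 to 0.86 in controls. The 5 fat cell markers ran from -1.88 to 3.80 in treated lungs and from -1.58 to 1.38 in controls. The 5 liver markers ran from -0.40 to 4.26 in treated lungs and from -0.10 to 0.14 in controls. Their part in the results below was not tested. Because whole sections were measured, more cells of a type and more RNA per cell cannot be told apart.

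No member passed an adjusted p of 0.05 in any of the 18 comparisons made with limma: each material and dose against the controls, the 3 materials pooled at each dose against the controls, 54 against 18 µg, and the materials against each other. The same comparisons called few units of any kind. The share of the 29316 units called was 0% in 15 of them, 0.0102% for NRCWE-043 against NRCWE-044 at 18 µg, 0.43% for NRCWE-043 against NRCWE-045 at 18 µg and 0.00341% for NRCWE-043 against NRCWE-045 at 54 µg. At an unadjusted p under 0.05 stood 7 of the 162 member values (4.32%), against 5.04% of the values of all units. A moderated F test over the 7 groups called 0.0443% of units and no member. The members are therefore described by their size, their interval and the arrays that carried them.

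At 54 µg of the 3 materials pooled, 8 of the 9 members lay above the controls, with a median log2 difference of 0.12, whereas 49.3% of all units lay above and their median was -0.0017. At an unadjusted p under 0.05, 1 member (H2-Oa) lay above the controls, against 2.86% of all units. At 18 µg pooled, 6 of the 9 lay above the controls with a median of 0.023, against 50.3% of all units. There 0 members lay above at an unadjusted p under 0.05, against 1.84% of all units. Both comparisons share the 5 controls. Without the control array lowest for H2-Oa, H2-Ob, H2-DMa, H2-DMb1 and H2-Eb1, the median at 54 µg was 0.063. At 18 µg it was -0.0024 or 0.079 when 1 or another of the 3 NRCWE-045 arrays was left out. With slide as a block, 9 of 9 members lay above the controls at 54 µg (median 0.20; 49.5% of all units) and 9 of 9 at 18 µg (median 0.11; 50.3% of all units), and 2 members, H2-Oa and H2-Ob, had an unadjusted p under 0.05 at each dose, against 5.44% and 3.34% of all units. No unit passed the adjusted p in either blocked comparison (0% of units).

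**Figure D1:**
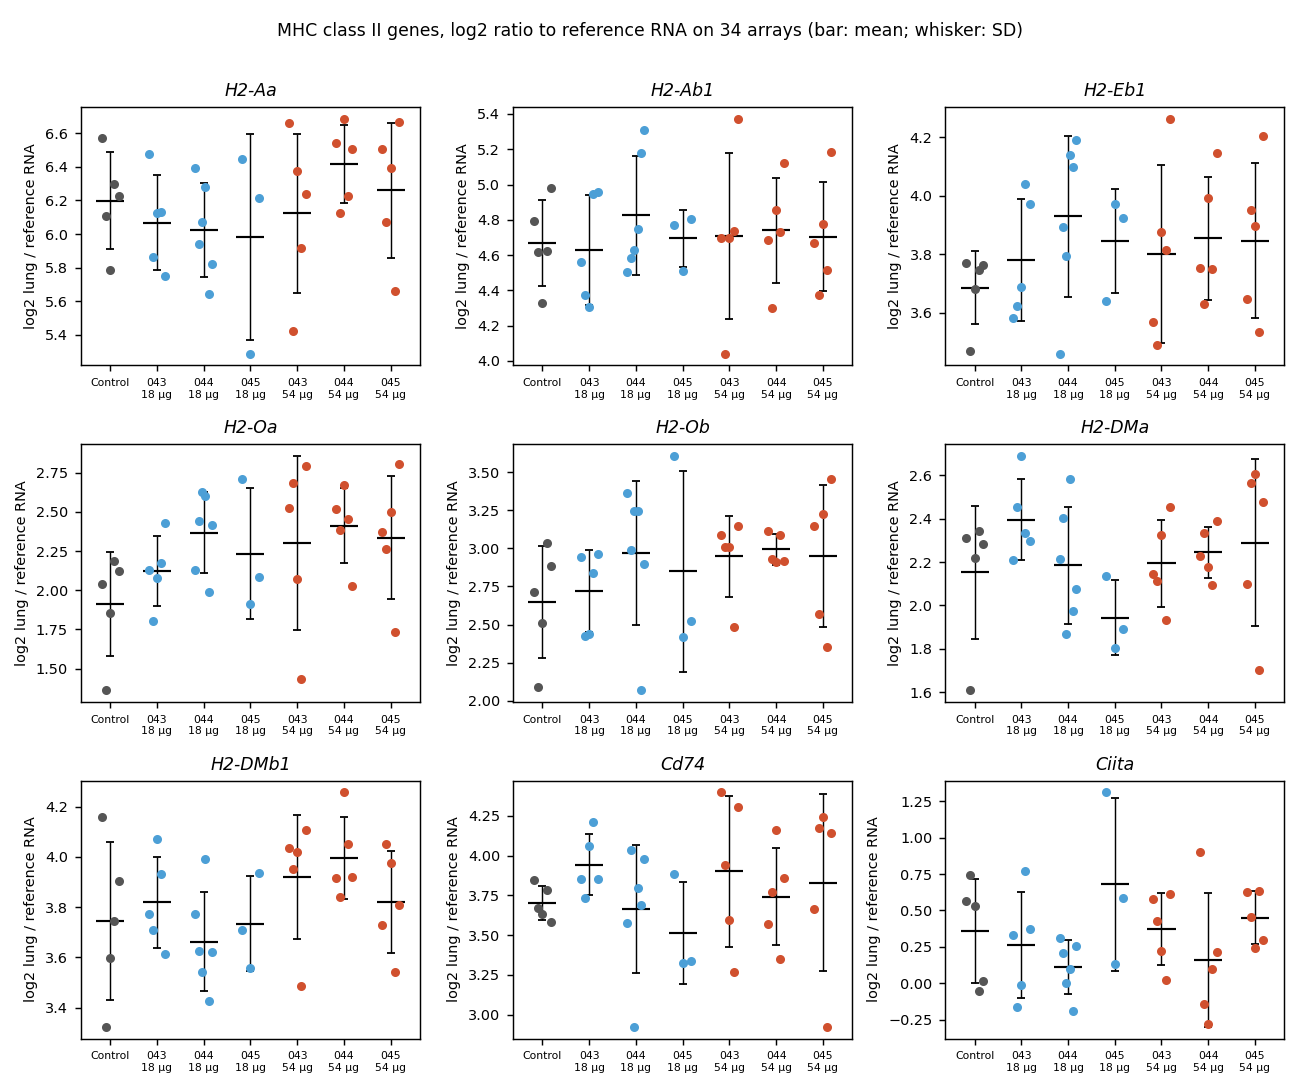
Log2 ratio of lung to reference RNA (vertical axes) of the 9 genes in the 7 groups on the horizontal axes, from controls through 18 µg to 54 µg of each material; each point is 1 array, the bar is the group mean and the whisker 1 SD. With the groups ordered by mean, neighbouring means lie closer than the larger of their SDs for every gene. The H2-Oa controls, from 1.36 to 2.19, lie low among the groups.

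H2-Oa, the alpha chain of the heterodimer that restrains H2-DM, had the largest difference at 54 µg. Its log2 ratios were 2.53, 2.68, 2.07, 1.43 and 2.79 with NRCWE-043, 2.52, 2.39, 2.67, 2.45 and 2.03 with NRCWE-044, and 2.37, 2.26, 2.50, 1.74 and 2.81 with NRCWE-045, against 2.04, 1.36, 1.85, 2.19 and 2.12 in the controls. Of the 15 arrays at 54 µg, 11 lay above every control, and the groups overlapped. The pooled log2 difference was 0.44 (SE 0.17, 95% interval 0.083 to 0.79, a fold of 1.35; limma adjusted p = 0.783). By material it was 0.39 for NRCWE-043, 0.50 for NRCWE-044 and 0.42 for NRCWE-045.

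At 18 µg the H2-Oa log2 ratios were 2.13, 1.81, 2.08, 2.17 and 2.43 with NRCWE-043. With NRCWE-044 they were 2.13, 2.44, 2.63, 2.60, 1.99 and 2.42, and with NRCWE-045 they were 2.71, 1.91 and 2.09. Of these 14 arrays 6 lay above every control, and the pooled log2 difference from the controls was 0.33 (SE 0.18, 95% interval -0.032 to 0.69; limma adjusted p = 0.999). With slide as a block the pooled differences were 0.50 at 54 µg (SE 0.18, adjusted p = 0.303) and 0.40 at 18 µg (SE 0.18, adjusted p = 0.783). Within slides 1, 2, 3 and 5, the 54 µg arrays exceeded the controls by 0.77, 0.59, 0.23 and 0.30. Without the lowest control array, at 1.36, the pooled 54 µg difference was 0.30 (limma adjusted p = 1.00).

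H2-Ob, the beta chain of the same heterodimer, had log2 ratios of 3.09, 3.01, 3.01, 2.49 and 3.15 with NRCWE-043 at 54 µg, 3.11, 2.93, 2.91, 3.09 and 2.92 with NRCWE-044, and 3.15, 2.57, 3.22, 2.35 and 3.45 with NRCWE-045. The controls had 2.71, 2.09, 2.51, 3.04 and 2.89. Of the 15 arrays 7 lay above every control, and the groups overlapped. The pooled log2 difference was 0.32 (SE 0.19, 95% interval -0.066 to 0.70; limma adjusted p = 0.955), and 0.43 with slide as a block (SE 0.17, adjusted p = 0.381). At 18 µg it was 0.20 (SE 0.19), and 0.38 with slide as a block. Without the control array at 2.09 the 54 µg difference was 0.18. The reference channel of this probe was well above background on 13 of 34 arrays, so its ratio rests on a dim denominator, while the lung channel was above background on all 34.

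H2-DMa and H2-DMb1, the alpha and beta chains of the peptide exchange factor, differed less from the controls. H2-DMb1 had log2 ratios of 4.03, 3.95, 4.02, 3.49 and 4.11 with NRCWE-043 at 54 µg, 3.91, 3.84, 4.26, 4.05 and 3.92 with NRCWE-044, and 3.73, 4.05, 3.97, 3.54 and 3.81 with NRCWE-045, against 4.16, 3.32, 3.60, 3.74 and 3.90 in the controls. The highest control exceeded all but 1 of the 15. The pooled difference was 0.17 (SE 0.11, 95% interval -0.059 to 0.39, adjusted p = 0.993 in limma), and 0.061 without the control at 3.32.

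H2-DMb1 was also the member with the smallest p between the doses. At 54 µg of NRCWE-044 its 5 arrays lay from 3.84 to 4.26, against 3.43 to 3.99 on the 6 arrays at 18 µg, a log2 difference of 0.33 (SE 0.13, limma adjusted p = 0.926). Over the 3 materials, 54 exceeded 18 µg by 0.17 (SE 0.081, 95% interval 0.0071 to 0.34, limma adjusted p = 1.00), and by 0.14 with slide as a block. In that pooled comparison 7 of 9 members lay above 0 (48.8% of all units) with a median of 0.11, and H2-DMb1 was the 1 member with an unadjusted p under 0.05 (1.85% of all units). H2-DMb1 has a near-identical neighbour, H2-DMb2, and a probe may read both; the H2-DMb2 probe had a log2 difference of 0.10 (SE 0.18) at 54 µg against the controls.

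H2-DMa had a median log2 ratio of 2.23 at 54 µg (1.70 to 2.61, 15 arrays), against 2.28 in the controls (1.61 to 2.34, 5 arrays), a mean difference of 0.090 (SE 0.13, 95% interval -0.17 to 0.35). Without the control at 1.61 the difference was -0.045. At the lower dose no difference in H2-DMa between materials passed the adjusted p. At 18 µg its log2 ratios were 2.21, 2.45, 2.69, 2.33 and 2.30 with NRCWE-043, against 2.14, 1.80 and 1.89 with NRCWE-045. These groups did not overlap, which held for 1.96% of all units in that direction, and the difference was 0.45 (SE 0.18, 95% interval 0.088 to 0.82, limma adjusted p = 0.319), and 0.32 with slide as a block. The liver markers also differed between these groups, from -0.25 to -0.05 with NRCWE-043 and from 0.72 to 4.26 with NRCWE-045; their part was not tested.

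Between materials at the same dose, the next smallest p was that of Ciita, with a log2 difference of -0.57 for NRCWE-044 minus NRCWE-045 at 18 µg (SE 0.23, limma adjusted p = 0.648). Its values were 0.31, 0.21, 0.00, 0.09, -0.19 and 0.26 with NRCWE-044, against 1.31, 0.13 and 0.59 with NRCWE-045, so the groups overlapped, and 1 array of NRCWE-045 stood above all the others. Without that array the difference was -0.25. At 54 µg, where each material had 5 arrays, the member differences ran from -0.29 to 0.22 for NRCWE-043 minus NRCWE-044, from -0.14 to 0.10 for NRCWE-043 minus NRCWE-045 and from -0.29 to 0.18 for NRCWE-044 minus NRCWE-045, with a smallest adjusted p of 1.00.

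**Figure D2:**
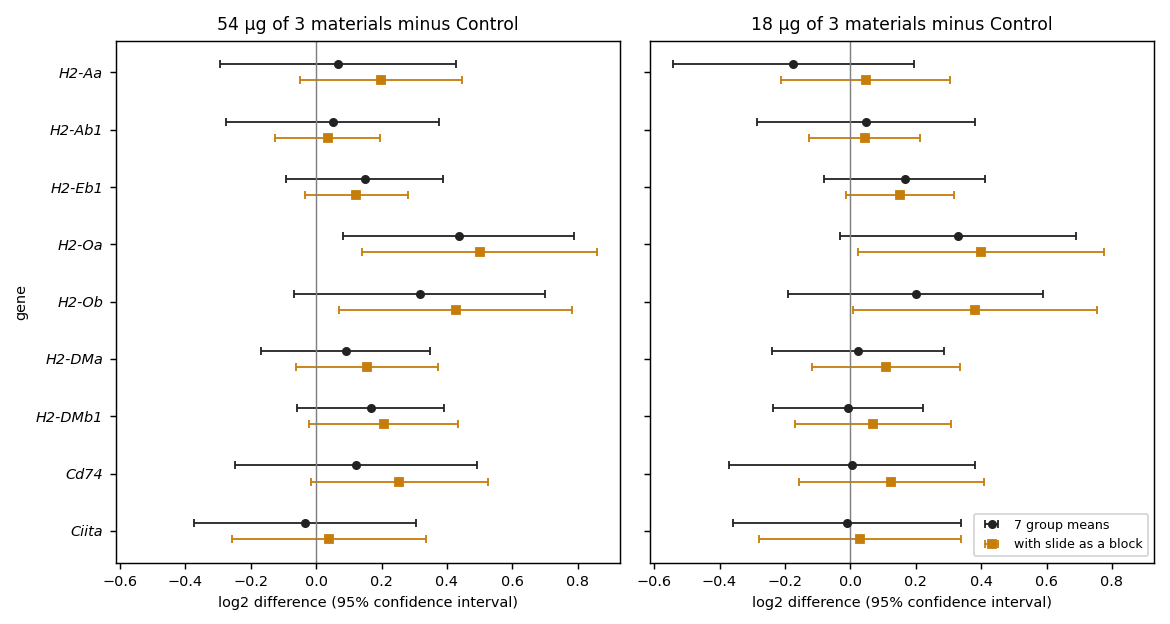
Pooled log2 difference from the controls (horizontal axis, 95% confidence interval) of each gene at 54 µg, left, and at 18 µg, right, from the fit of 7 group means (circles) and with slide as a block (squares). At 54 µg the H2-Oa intervals, 0.083 to 0.79 and 0.14 to 0.86, exclude 0 in both fits before adjustment. With slide as a block the H2-Oa and H2-Ob intervals exclude 0 at both doses. The intervals of all the other genes span 0 at both doses in both fits.

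The genes of the classical chains had pooled differences between -0.17 and 0.17. H2-Aa and H2-Ab1 form the H2-A molecule that carries peptide to the surface, and H2-Eb1 lacks its partner in this strain. H2-Aa had a median log2 ratio of 6.23 in the controls (5.79 to 6.57), 6.10 at 18 µg (5.29 to 6.47) and 6.38 at 54 µg (5.42 to 6.69). The pooled difference from the controls was 0.067 at 54 µg (SE 0.18, 95% interval -0.29 to 0.43) and -0.17 at 18 µg (SE 0.18, 95% interval -0.54 to 0.20). With slide as a block these became 0.20 and 0.046, so the sign at 18 µg turned. The reference channel of the H2-Aa probe was well above background on 23 of 34 arrays, so this ratio too rests on a dim denominator. For H2-Ab1 the pooled difference was 0.050 at 54 µg (SE 0.16) and 0.048 at 18 µg (SE 0.16), and 0.035 and 0.043 with the block, where the 95% interval at 54 µg was -0.13 to 0.20. For H2-Eb1 it was 0.15 at 54 µg (SE 0.12, 8 of 15 arrays above every control) and 0.17 at 18 µg (SE 0.12, 9 of 14 arrays above every control), and 0.12 and 0.15 with the block. None of the 3 genes passed the adjusted p at either dose in either fit.

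Cd74, the invariant chain, had a median log2 ratio of 3.67 in the controls (3.58 to 3.84), 3.83 at 18 µg (2.92 to 4.21) and 3.86 at 54 µg (2.92 to 4.40). Its SDs were 0.11 in the controls, 0.35 at 18 µg and 0.43 at 54 µg. Of the 29 treated arrays 8 lay below every control, and 5 of these were the 5 arrays of slide 4, which held no control. On the 4 slides with a control the SDs were 0.11 in the controls (5 arrays), 0.27 at 18 µg (9 arrays) and 0.28 at 54 µg (11 arrays). The pooled difference at 54 µg was 0.12 (SE 0.18), and 0.25 with slide as a block (SE 0.13, 95% interval -0.016 to 0.53, adjusted p = 0.518). On all 4 slides that held a control the mean of the 54 µg arrays lay above that of the controls, by 0.12 to 0.42. Slides 2, 3 and 5 held 1 control each. The same held for Cd74 at 18 µg, by 0.015 to 0.43. At 54 µg it also held for H2-Aa, H2-Eb1, H2-Oa, H2-Ob and H2-DMa, but not for H2-Ab1, H2-DMb1 and Ciita. Ciita, the transactivator, had a median of 0.30 at 54 µg (-0.28 to 0.90), against 0.53 in the controls (-0.05 to 0.75), a mean difference of -0.034 (SE 0.17), and its probe was well above background in the lung channel on 32 of 34 arrays.

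Over the 7 groups the mean levels of each gene had an order, but no 2 neighbours in it differed by more than the larger of their SDs (6 of 6 neighbouring pairs for each gene). Neighbours among sorted means lie close by construction, so this does not show that the groups are alike. H2-Oa was highest with NRCWE-044 at 54 µg, at 2.41 ± 0.24 (SD, n = 5), and lowest in the controls, at 1.91 ± 0.33 (SD, n = 5). H2-Ob was likewise highest with NRCWE-044 at 54 µg, at 2.99 ± 0.10, and lowest in the controls, at 2.65 ± 0.37 (SD, n = 5 each). H2-Eb1 was also lowest in the controls, at 3.69 ± 0.13 (SD, n = 5). H2-Aa, Cd74 and H2-DMa were lowest with NRCWE-045 at 18 µg, at 5.98 ± 0.61, 3.51 ± 0.32 and 1.94 ± 0.17 (SD, n = 3), and Ciita was highest there, at 0.68 ± 0.59.

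Slide accounted for much of the spread of the classical chains. It held 0.807 of the variance of H2-Ab1 over the 34 arrays, 0.636 of H2-Eb1, 0.617 of H2-Aa and 0.546 of Cd74, where the median unit had 0.346. It held 0.172 of H2-DMb1, 0.215 of H2-Ob and 0.0957 of H2-Oa. Group held between 0.0422 (H2-Ab1) and 0.235 (H2-DMb1), where the median unit had 0.161. H2-Ab1 lay between 4.04 and 4.58 on the 8 arrays of slide 2, the control among them at 4.33, and between 4.96 and 5.37 on the 4 arrays of slide 6. Cd74 lay between 2.92 and 3.35 on the 5 arrays of slide 4, which held no control, and between 3.32 and 4.40 on the other slides.

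**Figure D3:**
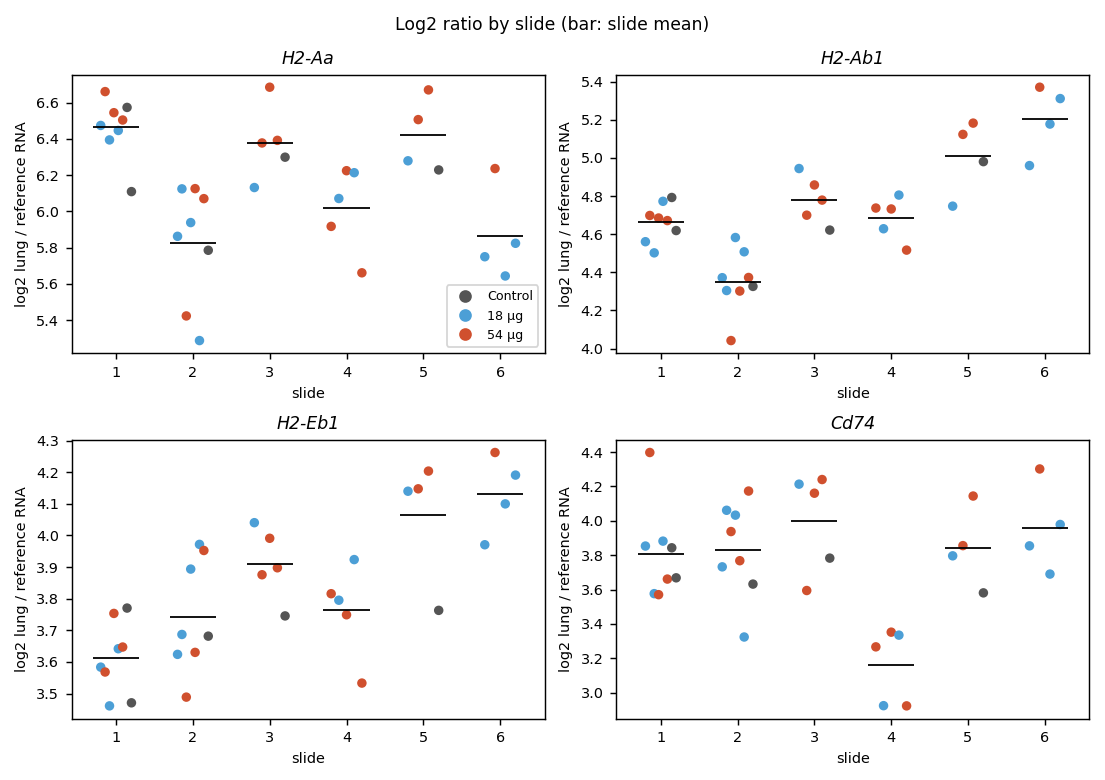
Log2 ratio of lung to reference RNA (vertical axes) of 4 genes by slide (horizontal axes); each point is 1 array, coloured as control, 18 µg or 54 µg, and the bar is the slide mean. H2-Ab1 is lowest on slide 2 (4.04 to 4.58) and highest on slide 6 (4.96 to 5.37), which held no control, and Cd74 is lowest on slide 4 (2.92 to 3.35).

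Over the 34 arrays, 33 of the 36 pairs of members had a positive Pearson correlation, with a median of 0.295, where 50% of all pairs of units were positive. In permutation tests 9 pairs passed an adjusted p of 0.05 (100000 resamples, two-sided, Benjamini-Hochberg over the 36 pairs). The weakest of these had r = 0.448 (permutation p = 0.0079 before adjustment), and 7.63% of all pairs of units lay at least as far from 0. Arrays were permuted freely across slides and groups, so shared slides can make these p-values too small. In deviations from group and slide 16 pairs passed, 8 of them among the 9, and 9.39% of all pairs of units were as far from 0 as the weakest. Permuting deviations does not allow for the group and slide means taken out, so their p-values are too small. The closest pair was H2-Oa and H2-Ob (r = 0.794, rho = 0.797, permutation adjusted p = 0.00018 for both, p = 1e-05 for r, the smallest the permutations can give). It held at 0.760 without the 2 arrays farthest from the H2-Oa median and at 0.819 in deviations from group and slide. H2-Ab1 and H2-Eb1 followed (r = 0.746, rho = 0.724, permutation adjusted p = 0.00018 for both), at 0.681 without 2 arrays and 0.700 in deviations. H2-DMa with Cd74 had r = 0.657 (rho = 0.602, permutation adjusted p = 0.00048), 0.642 without 2 arrays and 0.468 in deviations. H2-DMa with H2-DMb1 had r = 0.602 (rho = 0.534, permutation adjusted p = 0.00198), 0.485 without 2 arrays and 0.677 in deviations. These correlations are across arrays that share reference RNA and normalization.

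The 2 chains of a heterodimer were not always the closest pair. H2-Aa and H2-Ab1, which pair in the H2-A molecule, had r = 0.288 (rho = 0.321, permutation adjusted p = 0.188). In deviations from group and slide the pair had 0.429 and passed (permutation adjusted p = 0.0295). That p-value is too small, as stated above, so this call is not secure. In log2 ratios H2-Aa was closer to H2-Ob (0.552) and H2-DMb1 (0.549). In deviations H2-Aa with H2-Ob had 0.362 and did not pass (permutation adjusted p = 0.0724), below H2-Aa with H2-Ab1. There H2-Aa was closest to H2-DMa (0.741), and had 0.590 with H2-DMb1. The probes of H2-Aa and H2-Ob both had a dim reference channel. Ciita, whose product drives the others, had r between -0.190 and 0.203 with the other 8, and between -0.0920 and 0.230 in deviations. Its probe was dim, with a median lung intensity of 159.25 over a local background of 69 to 78.

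**Figure D4:**
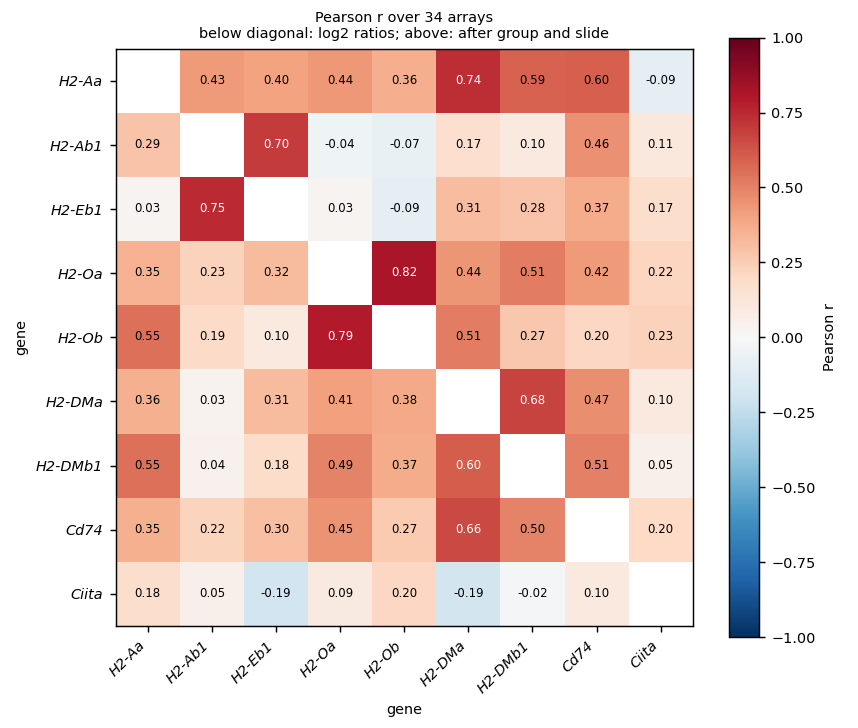
Pearson correlation of each pair of the 9 genes over 34 arrays (colour scale and printed values), from log2 ratios below the diagonal and from deviations from group and slide above it. H2-Oa with H2-Ob (0.794 and 0.819) and H2-Ab1 with H2-Eb1 (0.746 and 0.700) are the deepest squares below the diagonal, and the Ciita row is pale.

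Members also moved with several marker and pathway lists. Of 72 relations between the 9 members and the mean levels of 8 gene lists, 21 passed an adjusted p of 0.05 in two-sided permutation tests adjusted over the 72. Here too arrays were permuted freely across slides and groups. The weakest of the 21 had r = 0.427, and 5.86% of the relations of all units with the same lists lay at least as far from 0. Each list was set against the 9 members. Of these 9, 3 passed with the B cell, 4 with the dendritic cell and 2 with the interstitial macrophage markers. With the alveolar type 2 markers 2 passed, and with the alveolar macrophage markers 0. The T cell and class I lists had 4 each and the interferon gamma list 2, and these lists do not mark class II-bearing cells. In deviations from group and slide 24 passed, 16 of them among the 21, and 7.5% of the relations of all units were as far from 0 as the weakest of those. As for the pairs, the p-values from deviations are too small, because the group and slide means taken out are not allowed for. H2-Oa and H2-Ob followed 8 B cell markers (Cd79a, Cd79b, Ms4a1, Pax5, Blk, Bank1, Cr2 and Fcer2a) at r = 0.871 and r = 0.852 (rho = 0.921 and rho = 0.807, permutation adjusted p = 0.00012 each). In deviations from group and slide the values were 0.896 and 0.857, and without the 2 arrays farthest in B cell markers 0.859 and 0.799. They also followed the 7 T cell markers, at r = 0.755 and r = 0.676 (rho = 0.739 and rho = 0.657), 0.774 and 0.724 without 2 arrays and 0.805 and 0.612 in deviations. Both also passed with the conventional dendritic cell markers (r = 0.493 and r = 0.534, permutation adjusted p = 0.0138 and 0.00678). The other members had r of at most 0.43 with the B cell markers, the value of H2-DMb1 (permutation adjusted p = 0.0396). In deviations H2-DMb1 had 0.392 (permutation adjusted p = 0.0616) and Ciita 0.422 (permutation adjusted p = 0.0406). Both lie near the threshold, and because such p-values are too small the Ciita call is not secure.

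The mean log2 level of the B cell markers, set against the control mean, had a median of 0.072 in the controls (-0.47 to 0.26, 5 arrays), 0.31 at 18 µg (-0.33 to 1.1, 14 arrays) and 0.42 at 54 µg (-0.14 to 0.67, 15 arrays). All 8 had a pooled log2 difference above 0 at 54 µg (49.3% of all units), with a median of 0.44. Of the 8, 5 had an unadjusted p under 0.05, against 2.86% of all units in that direction, but none passed the adjusted p. Ms4a1, the B cell antigen CD20, had 0.74 (SE 0.24, limma adjusted p = 0.626), Cr2, a complement receptor, 0.46 (SE 0.18, adjusted p = 0.785) and Fcer2a, the low-affinity IgE receptor, 0.43 (SE 0.16, adjusted p = 0.756). The control array with the lowest H2-Oa and H2-Ob had the lowest B cell marker level of the 34, at -0.47. How far the marker levels account for the H2-Oa and H2-Ob differences was not tested.

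The lists overlapped in the members they went with. H2-DMb1 followed the 6 conventional dendritic cell markers tested, among them Flt3, Zbtb46 and Batf3, at r = 0.762 (rho = 0.732, permutation adjusted p = 0.00012), 0.716 without 2 arrays and 0.809 in deviations, and it also passed with the T cell markers (r = 0.465). H2-Aa followed the 8 interstitial macrophage and monocyte markers at r = 0.737 (rho = 0.758, permutation adjusted p = 0.00012), 0.727 without 2 arrays and 0.539 in deviations, and it also passed with the dendritic cell (r = 0.653) and T cell markers (r = 0.427). Cd74 was closest to the 14 MHC class I presentation genes, at r = 0.711 (rho = 0.723, permutation adjusted p = 0.00012), 0.626 without 2 arrays and 0.742 in deviations. H2-Ab1 and H2-Eb1 had r = 0.580 and r = 0.556 with the 6 alveolar type 2 markers (rho = 0.506 and rho = 0.511, permutation adjusted p = 0.00304 and 0.00461), and 0.382 and 0.420 without 2 arrays. Neither call held in deviations from group and slide, with 0.206 and 0.270 (permutation adjusted p = 0.375 and 0.207). In deviations H2-Aa (0.499) and H2-DMa (0.479) passed with these markers instead (permutation adjusted p = 0.0138 and 0.0172, both too small for the reason given above). No member passed with the 5 alveolar macrophage markers, where r ran from -0.34 to 0.16.

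**Figure D5:**
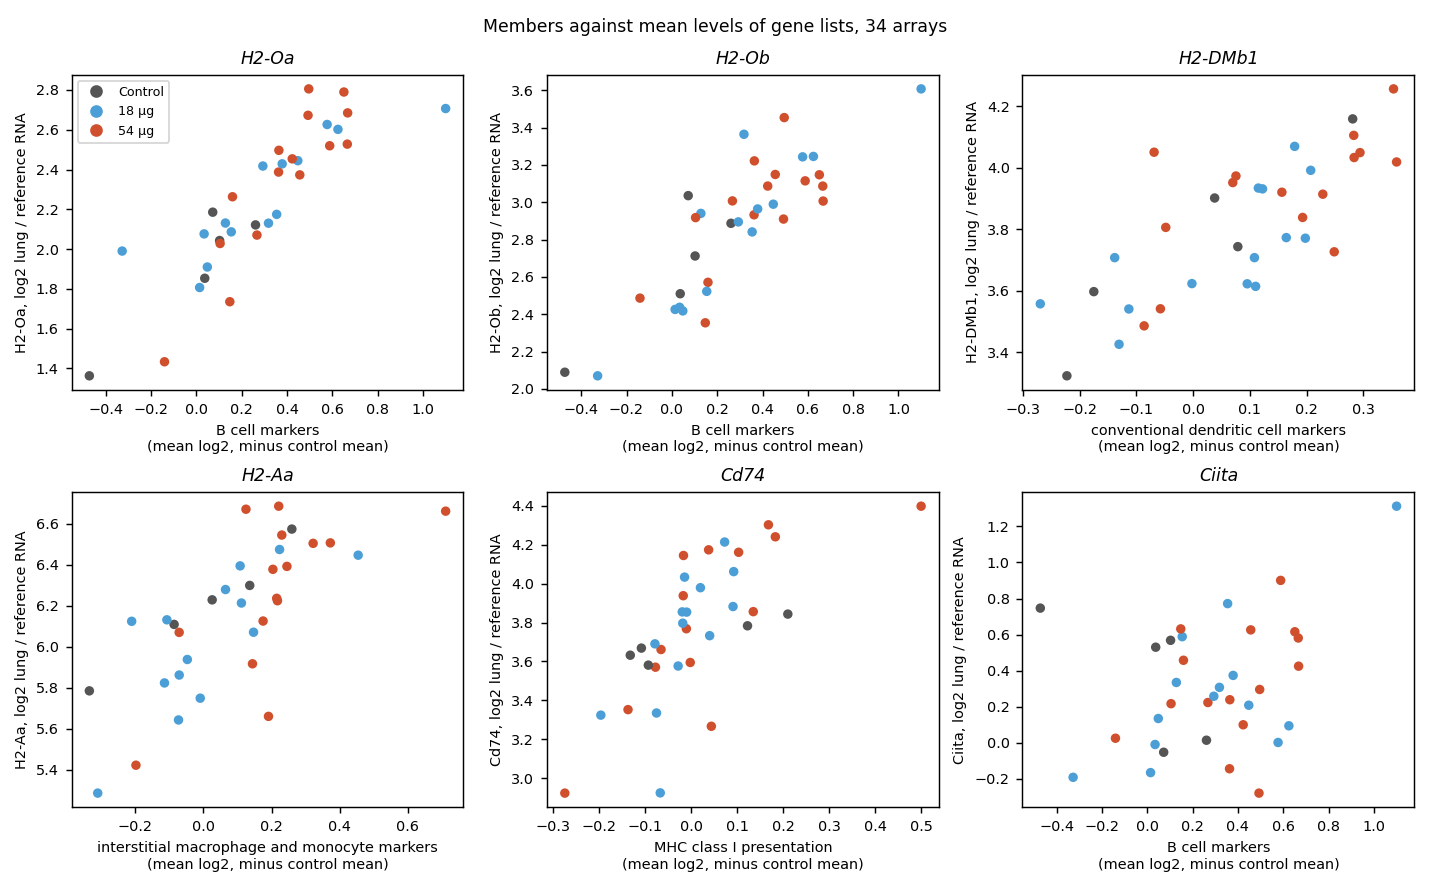
Log2 ratio of 6 genes (vertical axes) against the mean log2 level of a gene list relative to the control mean (horizontal axes); each point is 1 of 34 arrays, coloured as control, 18 µg or 54 µg. H2-Oa and H2-Ob rise with the B cell markers (r = 0.871 and 0.852) and H2-DMb1 with dendritic cell markers (0.762). H2-Aa rises with macrophage and monocyte markers (0.737) and Cd74 with class I genes (0.711). Ciita is more scattered against the B cell markers (0.34, and 0.422 in deviations from group and slide).

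Of the genes tested, those whose level was most like the mean of the centred H2-Aa, H2-Ab1, H2-Eb1 and Cd74 values over the 34 arrays were Rps9 (r = 0.768), Chd4 (0.767), Apobec3 (0.766), Daxx (0.758) and Tubb5 (0.758). In deviations from group and slide the same genes had 0.560, 0.605, 0.505, 0.439 and 0.661.

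Of 17 other genes of the class II pathway, 11 lay above the controls at 54 µg pooled, with a median log2 difference of 0.026, and none passed the adjusted p. Ctss, the lysosomal protease that cuts the invariant chain, had 0.61 (SE 0.17, limma adjusted p = 0.550). Lgmn, an endosomal protease, had 0.16 (SE 0.11), and Ctsf, a cysteine protease, -0.22 (SE 0.088, adjusted p = 0.786). The subunits of the factors that bind the X and Y boxes had log2 differences of 0.018 (Rfx5), -0.10 (Rfxap), 0.094 (Rfxank), -0.23 (Nfya, SE 0.18), 0.041 (Nfyb) and 0.017 (Nfyc). Ifi30, the thiol reductase of antigen processing, had 0.026. Of 14 class I presentation genes 11 lay above the controls (median 0.044), of 12 interferon gamma signalling genes 9 (median 0.035), and of 6 costimulation genes 5 (median 0.067), the largest being Cd86, a ligand of CD28, at 0.38 (SE 0.12, adjusted p = 0.626). The 8 interstitial macrophage and monocyte markers were all above 0 (median 0.17), as were the 7 T cell markers (median 0.21), whereas 1 of 5 alveolar macrophage markers was (median -0.084). In the same comparison 49.3% of all units lay above 0, with a median of -0.0017, and all these counts share the 5 controls. No gene of these lists passed the adjusted p.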

How the data were processed

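Two-colour arrays were hybridised with lung RNA (Cy5, 200 ng per array) and reference RNA (Cy3), with no dye swap. Per the file headers, spots were extracted with Agilent Feature Extraction 11.0.1.1, and the deposited scanner files give each spot's median intensity and local background in both channels. The deposited series table holds log2 ratios, centred near 0; how the authors made it is not given in the sources used here, and it served as an alternative only.

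Background was subtracted by normexp with an offset of 50, ratios were normalized by loess, irregular and control spots had weight 0, and repeat spots were averaged per probe (limma 3.58.1, R 4.3.3). Units well above background in the lung channel on at least 3 arrays were tested. limma fitted 7 group means to each unit, with Benjamini-Hochberg adjustment across the 29316 units. Of the units, 120 lacked a value on some array, and none of these was a member. The number of arrays limits the precision.

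The members and lists were chosen with earlier results of these data known, so no list serves as independent evidence. One gene of the B cell list is not reported here and was left out of that list's values for that reason alone. Named genes are the 9 members, of each other list those passing, otherwise at most 3 by smallest p at 54 µg, and the 5 nearest to the core genes; Rfx5, Rfxap, Rfxank, Nfya, Nfyb, Nfyc, Ifi30 and H2-DMb2 were named after their values were seen. Sequences are credited to RefSeq.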

Additional observations from a re-analysis of the deposited data

Results flagged for a closer look

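In groups of 5 or 6 arrays, an array was singled out where its gap to the nearest other array, as a share of the group's range, passed Dixon's critical value; chance singles out about 1 in 20 groups, and 54 were looked at. This held for 4. Among the controls, H2-DMa was 1.61 on 1 array and 2.22 to 2.34 on the other 4; the same array was the lowest control for H2-Oa, H2-Ob, H2-DMb1 and H2-Eb1. With NRCWE-043 at 54 µg, replicate 4 had H2-DMb1 at 3.49, where the others had 3.95 to 4.11, and H2-Ob at 2.49, where the others had 3.01 to 3.15. With NRCWE-044 at 18 µg, replicate 5 had H2-Ob at 2.07, where the others had 2.89 to 3.36. H2-DMa differed in direction between materials, the 5 arrays of NRCWE-043 at 18 µg all lying above the control mean and the 3 of NRCWE-045 at 18 µg all below it, 0.45 apart, with a limma adjusted p of 0.319 for that difference. Without the control at 1.61 the control mean was 2.29 in place of 2.15, and 4 of the 5 NRCWE-043 arrays lay above it. With slide as a block NRCWE-045 at 18 µg minus the controls was -0.057, in place of -0.21. It was the 1 such case among 81 looked at.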

How the results depend on the processing

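The 12 alternatives to the processing and 34 fits that each left out 1 array gave 3870 values for single members. None passed the adjusted p, the lowest being 0.238, and 315 had the opposite sign. The sign changed most often with slide as a fixed block (29 of 162 values) and with median centring in place of loess (21 of 162). Aquantile, the other filters on dim probes and fitting only the groups compared cannot alter a member's log2 difference. Their 0 of 162 changes of sign were therefore fixed in advance. These settings are nonetheless counted in the 3870 values and in the 32 alternatives that follow. At 54 µg pooled, H2-Oa kept its sign in 32 of 32 alternatives (0.30 to 0.56), as did H2-Ob (0.18 to 0.61), H2-DMb1 (0.061 to 0.27), Cd74 (0.080 to 0.25) and H2-Eb1 (0.094 to 0.22), while Ciita lay above 0 in 7 of 32. Leaving out 1 of the 3 arrays of NRCWE-045 at 18 µg moved 2 medians over the members by more than 1 SD of the controls. That of NRCWE-045 at 54 minus 18 µg ran between -0.0619 and 0.337 over its fits with 1 array left out, and that of NRCWE-043 minus NRCWE-045 at 18 µg between -0.161 and 0.125. The pair correlations had a median of 0.295, 0.335 in deviations from group and slide and 0.312 in the authors' series table. No paired analysis was possible because replicate numbers were given in the order of the deposit. The dim reference channels of H2-Ob and H2-Aa and the dim Ciita probe limit the precision of those genes.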
